A study of Mus musculus with 9 samples.

Results

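The 10 genes described here encode the receptors, kinase, transcription factor, feedback inhibitor and antagonist through which interleukin 6 (IL-6), its relatives and interleukin 1 (IL-1) act on liver cells. They were taken by symbol: the IL-6 receptor subunits Il6ra and Il6st, the oncostatin M and leukaemia inhibitory factor receptors Osmr and Lifr, the kinase Jak1, the transcription factor Stat3, its inhibitor Socs3, the IL-1 receptor subunits Il1r1 and Il1rap, and the receptor antagonist Il1rn. The deposited table has 57010 genes and holds all 10, each in 1 row. The 10 also passed the filter on low counts, which left 13686 genes for testing.

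IL-6 binds the receptor encoded by Il6ra, and the complex joins the signal-transducing subunit encoded by Il6st, which the receptors for oncostatin M and leukaemia inhibitory factor also use. Kinases of the JAK family bound to that subunit then phosphorylate STAT3, which enters the nucleus and switches on acute phase genes in hepatocytes, together with Socs3, whose product blocks the receptor again. IL-1 binds the receptor encoded by Il1r1, which needs the accessory protein encoded by Il1rap to signal, while the Il1rn product occupies the same receptor without activating it. In liver, the combination of IL-6 and IL-1 is known for driving the secretion of acute phase proteins.

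RNA was sequenced from liver of male BALB/c mice (total RNA, SMARTER mRNA-Seq libraries). The groups are CON, untreated, CPT, liver injury induced with the DNA-crosslinking platinum drug cisplatin (DDP in the design text), and AT3, whose labels give the same cisplatin injury as CPT. Atractylenolide III, a sesquiterpene lactone from plants, appears in the title of the series, but the labels of the AT3 samples do not name it. Dose, route, time after injection and age were not stated. Each group has 3 libraries. Because no label says that libraries of a group came from different animals, the p-values reflect only how far these libraries differ, which may be technical. Estimated counts summed to between 21485021 and 28480479 a library. Mitochondrially encoded genes took 25.8% to 36.8% of the counts in CON, against 11.2% to 16.3% in the CPT libraries and 9.79% to 11.4% in AT3, and the TMM factors were 0.726 to 0.963 in CON and 1.05 to 1.13 in the other libraries. This difference in composition runs along with CON against both other groups, and its part in the results was not tested beyond a scaling without mitochondrial and the 10 most abundant other genes, under which the 9 calls against CON held.

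In bulk liver, fewer cells of a type and less RNA per cell cannot be told apart. Hepatocyte markers were present in every library, and the 6 genes summed to 64562 to 69111 CPM (the deposited count of a gene relative to the TMM-scaled total of its library) in CON. The same sum was 46369 to 62238 CPM in the CPT libraries and 71812 to 77448 in those of AT3. Markers of other cells differed between the groups. The counts of markers below are to be read beside all tested genes in CPT against CON. Of those 60.8% were called, 30.0% higher and 30.8% lower (edgeR adjusted p < 0.05). The 6 hepatocyte markers were split in CPT against CON, where 2 rose, 2 fell and 2 were not called. Their sum therefore does not stand for each of them. Of 10 sinusoidal endothelial markers 8 fell in CPT against CON and 0 rose by edgeR, with 0 also rising at an unadjusted p under 0.05 and by DESeq2, and their sum of 145 to 149 CPM in CON stood against 26.1 to 34.8 in CPT and 29.7 to 36.7 in AT3. The 9 stellate cell markers fell, from sums of 303 to 364 CPM to sums of 65.3 to 72.3 in CPT and 45.3 to 57.5 in AT3. Of 8 Kupffer cell markers 5 fell and 1 rose, and their sum was 36.5 to 47.9 CPM in CON, against 17.3 to 20.1 in the CPT libraries and 19.1 to 23.1 in AT3. Of 10 neutrophil markers 6 were tested and 5 rose, and the sum over the 10 was 4.36 to 5.29 CPM in CON against 24.8 to 51.9 in CPT, with AT3 between them at 13.3 to 13.9. No library held more than 7 counts of any of the untested neutrophil markers Ly6g, Camp, Mpo and Elane. Of 6 monocyte markers 5 were tested and 4 rose. Of these 4, Chil3 had 0 counts in CON and passed the filter on low counts only through CPT and AT3. The sum over the 6 was 6.98 to 11.97 CPM in CON, against 14.6 to 25.7 in CPT and 16.5 to 20.2 in AT3. The 5 erythroid markers fell, from sums of 797 to 908 CPM to 42.7 to 50.9 in CPT and 38.4 to 44.5 in AT3. Beyond Chil3, it is not stated here which rising markers passed the filter on low counts only through CPT and AT3. The counts of rising markers may therefore be partly tied to that filter. The part of these cell types in the results below was not tested.

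The windows of 250 bases before the annotated starts of these genes were searched for elements tied to the pathway, because Socs3 and Il1r1 were among the members that rose most. The RefSeq promoter table (build GRCm38.p6) held 14 windows for the 10 genes. The STAT element TTCNNNGAA, the same on both strands, was found in 7.02% of 32851 windows of all genes and in 1 member window, that of Socs3, at 154 to 146 bases before the start. Its stricter form TTCCNGGAA, contained in the element above, was in 0.913% of all windows and in 0 member windows. The C/EBP element TTNNGNAAT, searched on both strands, was in 10.2% of all windows and in 3 member windows, of which 2 belong to Il1r1 and 1 to Il1rn. The kB consensus, searched on both strands, was in 5.001% of windows and in 0 member windows. A match is a run of letters and not a measured site. The stretches free of annotated exons in these windows are shown for Socs3 and for both starts of Il1r1, with the matched element in capitals. The Socs3 stretch is chr11:117969452-117969616 on the minus strand and ends at 86 bases before the start, and the Il1r1 stretches are chr1:40224830-40225079 and chr1:40266336-40266585 on the plus strand. In GENCODE M21 the Socs3 gene begins further upstream, at 117970047, so this Socs3 stretch lies inside the annotated gene. The downstream Il1r1 stretch also lies inside its gene.
Socs3: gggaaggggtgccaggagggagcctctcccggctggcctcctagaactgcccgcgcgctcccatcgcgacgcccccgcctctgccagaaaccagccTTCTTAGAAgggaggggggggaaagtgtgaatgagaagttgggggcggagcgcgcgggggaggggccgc
Il1r1, upstream start: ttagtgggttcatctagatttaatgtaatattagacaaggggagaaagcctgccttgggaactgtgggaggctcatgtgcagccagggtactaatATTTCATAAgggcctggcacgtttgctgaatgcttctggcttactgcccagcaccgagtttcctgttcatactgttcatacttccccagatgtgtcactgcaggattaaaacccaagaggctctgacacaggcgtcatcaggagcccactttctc
Il1r1, downstream start: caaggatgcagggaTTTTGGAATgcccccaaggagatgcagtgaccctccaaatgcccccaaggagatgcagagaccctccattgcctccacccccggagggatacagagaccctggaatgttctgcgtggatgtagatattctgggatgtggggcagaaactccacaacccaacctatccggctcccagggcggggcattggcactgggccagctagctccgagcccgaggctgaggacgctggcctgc
The upstream Il1r1 match reads TTNNGNAAT on the opposite strand. The Il1rn match, TTTGGAAAT, lies 64 to 56 bases before its last annotated start, inside an exon that begins at an earlier start, so that window is not printed.

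Livers injured by cisplatin were first set against untreated livers, CPT against CON. Of the 10 genes 7 rose, from the antagonist Il1rn and the inhibitor Socs3 with the largest folds to the kinase Jak1 with the smallest. The receptor genes Lifr and Il1rap were the 2 that fell, and Il6st was not called (edgeR adjusted p < 0.05). Among all tested genes 60.8% were called, 30.0% higher and 30.8% lower, so 9 called genes of 10 is to be read against a background in which most genes were called. The libraries of the groups did not overlap for 9 of the 10, against 64.2% of all tested genes. In either direction 8 were called with a log2 fold change of at least 1, against 28.9%. Il1rn is in each of these counts, though it passed the filter on low counts only through CPT and AT3. The median log2 fold change of the 10 was 1.57, beside -0.019 over all tested genes. On the scale of deposited TPM (transcript abundance per gene length, scaled to a fixed total in each library) the median of all genes lay higher by 0.29 in CPT and by 0.32 in AT3 (log2, pseudocount 1), and limma called 6631 genes higher and 1604 lower in CPT against CON, beside 4107 and 4219 by edgeR. Relative to that median the 9 kept their direction in CPT, from -1.49 for Lifr to 3.26 for Socs3. All 9 calls held under the 17 alternative settings run for this comparison.

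Gene positions are those of GENCODE M21 on build GRCm38, where the 10 are protein-coding. Il6ra, the ligand-binding subunit for IL-6 (ENSMUSG00000027947, chromosome 3 from 89864059 to 89913196 on the minus strand), measured 7.81, 11.5 and 8.44 CPM in CON, 25.3, 25.9 and 24.1 in CPT, and 32.7, 29.9 and 36.8 in AT3. The 3 groups did not overlap, with CON lowest and AT3 highest. Il6ra rose 2.69-fold in CPT (log2 fold change 1.43 ± 0.13 (SE), edgeR adjusted p = 2.41e-07). An antisense gene, Gm42809, shares 242 exon bases with Il6ra on the other strand, and no label says whether reads were assigned by strand.

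Il6st, the shared signal-transducing subunit (ENSMUSG00000021756, chromosome 13 from 112464070 to 112510086 on the plus strand), measured 54.9, 46.4 and 54.3 CPM in CON, 54.5, 55.1 and 54.1 in CPT, and 43.8, 49.9 and 49.8 in AT3. The CPT libraries lay at the top of the CON range and above every AT3 library, and CON overlapped both groups. Neither comparison with CON passed the test, with a log2 fold change of 0.076 in CPT (adjusted p = 0.5097) and -0.11 in AT3 (adjusted p = 0.308). On the log2(TPM + 1) scale it was higher by 0.56 in CPT and by 0.47 in AT3 against CON, and limma called both (adjusted p = 0.00184 and 0.00466). Relative to the median of all genes on that scale, Il6st was higher by 0.27 and 0.14. The direction against CON in AT3 therefore differs between the 2 scales.

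Osmr, the oncostatin M receptor subunit (ENSMUSG00000022146, chromosome 15 from 6813577 to 6874969 on the minus strand), measured 0.618, 0.628 and 1.07 CPM in CON, 3.004, 3.95 and 2.11 in CPT, and 2.72, 3.38 and 2.76 in AT3. Its mean was the lowest of the 10 per gene length in every group, and each CPT and AT3 library lay above each CON library. The gene rose 3.98-fold in CPT (log2 fold change 1.99 ± 0.30 (SE), edgeR adjusted p = 3.65e-05). CON libraries held 11, 16 and 19 counts of it, which limits the precision of the fold. On the log2(TPM + 1) scale, where the pseudocount understates the change of low genes, Osmr rose 1.46-fold, 0.26 (log2) above the median of all genes. Lifr, the leukaemia inhibitory factor receptor (ENSMUSG00000054263, chromosome 15 from 7090614 to 7197489 on the plus strand), measured 155, 126 and 187 CPM in CON, 26.8, 35.1 and 31.2 in CPT, and 32.1, 34.4 and 34.5 in AT3. Here CON was highest, without overlap. Lifr fell 5.03-fold in CPT (log2 fold change -2.33 ± 0.14 (SE), edgeR adjusted p = 1.29e-09), and on the log2(TPM + 1) scale it fell 2.29-fold. Of all tested genes it had the 523rd lowest fold change. The 2 receptors that pair with Il6st for neighbouring cytokines thus moved in opposite directions.

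Jak1, the receptor-bound tyrosine kinase (ENSMUSG00000028530, chromosome 4 from 101152367 to 101265282 on the minus strand), measured 17.7, 19.5 and 18.7 CPM in CON, 29.9, 31.9 and 32.6 in CPT, and 30.9, 37.6 and 31.2 in AT3. CON was lowest and did not overlap the other groups, which overlapped each other. Jak1 rose 1.68-fold in CPT (log2 fold change 0.75 ± 0.10 (SE), edgeR adjusted p = 1.25e-05), the smallest called rise of the 10.

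Stat3, the transcription factor of the axis (ENSMUSG00000004040, chromosome 11 from 100885098 to 100939540 on the minus strand), measured 28.1, 31.05 and 31.4 CPM in CON, 94.9, 92.7 and 111 in CPT, and 101, 104 and 112 in AT3. All 6 libraries labelled with cisplatin injury lay far above CON, and CPT and AT3 overlapped. Its rise in CPT was 3.296-fold (log2 fold change 1.72 ± 0.10 (SE), edgeR adjusted p = 1.33e-09). An exon stretch of 72 bases overlaps Stat5a on the other strand, and Stat5a moved the opposite way (log2 fold change -1.32 ± 0.13 (SE), edgeR adjusted p = 5.64e-07).

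Socs3, the feedback inhibitor (ENSMUSG00000053113, chromosome 11 from 117966079 to 117970047 on the minus strand), measured 3.93, 3.38 and 7.09 CPM in CON, 67.8, 76.9 and 55.9 in CPT, and 34.5, 43.1 and 37.3 in AT3. The 3 groups did not overlap, with CPT highest and AT3 between CPT and CON. Socs3 rose 14.2-fold in CPT (log2 fold change 3.83 ± 0.21 (SE), edgeR adjusted p = 5.37e-10), the 140th highest fold change of the 13686 tested genes. Its window above holds TTCTTAGAA. The STAT element was in 7.02% of all windows and in 1 of the 14 member windows, and its part in the rise was not tested.

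Il1r1, the signalling IL-1 receptor (ENSMUSG00000026072, chromosome 1 from 40225080 to 40317257 on the plus strand), measured 48.8, 40.2 and 61.3 CPM in CON, 261, 253 and 196 in CPT, and 196, 233 and 209 in AT3. CON was lowest without overlap, and CPT and AT3 overlapped. Il1r1 rose 4.74-fold in CPT (log2 fold change 2.24 ± 0.15 (SE), edgeR adjusted p = 5.06e-09) and was the most abundant of the 10 per gene length there. Il1rap, the accessory protein needed for signalling (ENSMUSG00000022514, chromosome 16 from 26581704 to 26730117 on the plus strand), measured 99.9, 107 and 118 CPM in CON, 49.05, 55.2 and 38.9 in CPT, and 38.1, 42.4 and 44.6 in AT3. Its CON libraries were the highest, without overlap. Il1rap fell 2.27-fold in CPT (log2 fold change -1.18 ± 0.12 (SE), edgeR adjusted p = 6.46e-07), and on the log2(TPM + 1) scale it fell 1.49-fold. The antisense gene Gm20319 shares 552 exon bases with it. Soluble and membrane-bound forms of Il1rap cannot be told apart in counts per gene.

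Il1rn, the IL-1 receptor antagonist (ENSMUSG00000026981, chromosome 2 from 24336853 to 24351494 on the plus strand), measured 0.4496, 0.275 and 0.113 CPM in CON, 17.4, 19.9 and 33.2 in CPT, and 21.5, 23.8 and 24.4 in AT3. It was close to absent in CON, with 8, 7 and 2 counts, and CPT_3 was the highest of the 9 libraries. The gene passed the filter on low counts only through CPT and AT3, so its being tested and its direction against CON are tied. Il1rn rose 82.7-fold in CPT (log2 fold change 6.37 ± 0.34 (SE), edgeR adjusted p = 4.17e-10), the 39th highest fold change, and 11.2-fold on the log2(TPM + 1) scale, which understates a gene this low in CON. From the summed counts, 1994 in CPT and 17 in CON, the ratio was 82.8 with an exact 95% interval of 51.6 to 142, which covers counting error only. Secreted and intracellular forms cannot be told apart in counts per gene. In CPT_1, CPT_2 and CPT_3 the neutrophil marker sum was 25.1, 51.9 and 24.8 CPM and the monocyte marker sum 14.6, 23.4 and 25.7 CPM. The part of both cell types in the Il1rn value was not tested.

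**Figure D1:**
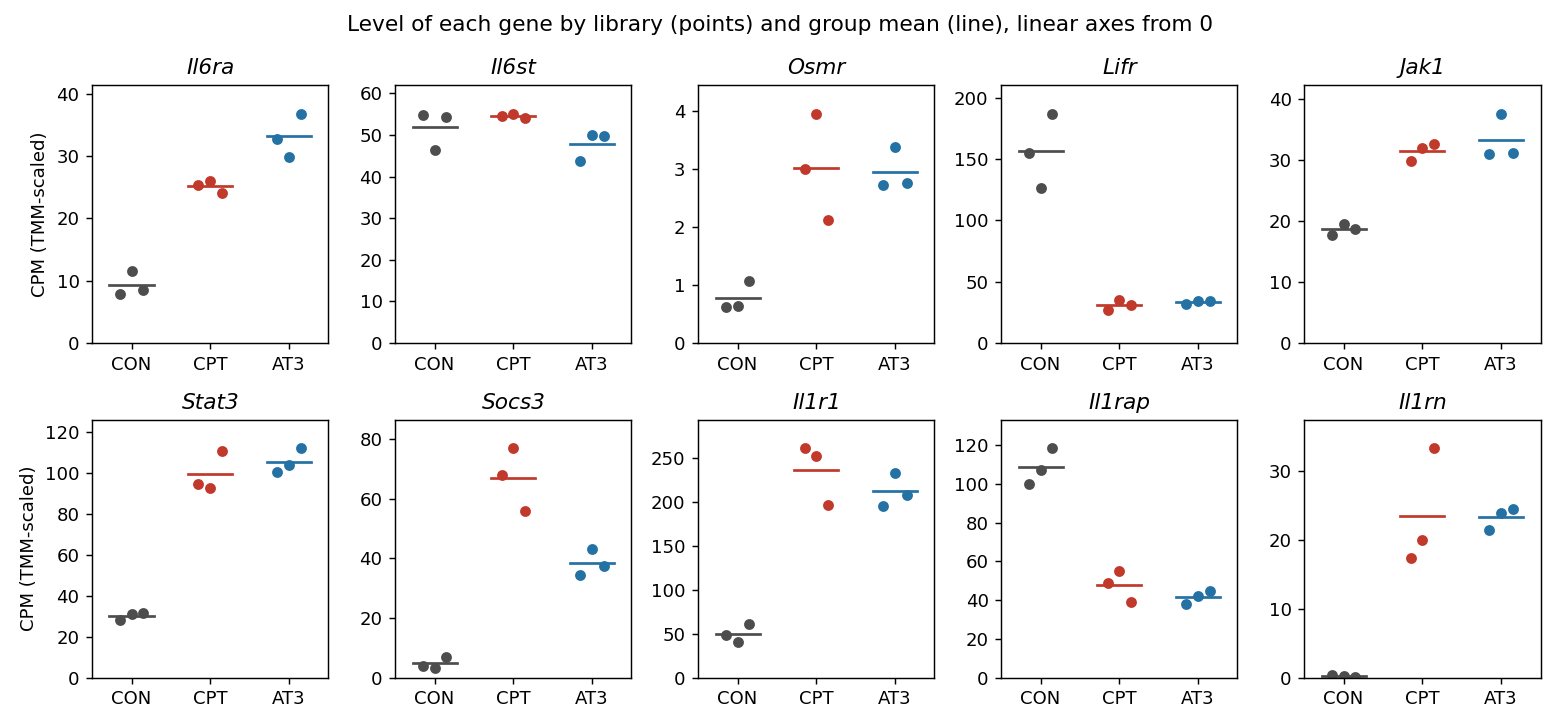
TMM-scaled CPM of the 10 genes on linear axes from 0, one panel a gene, with each library as a point and each group mean (n = 3) as a line. Lifr and Il1rap are highest in CON, Il6st overlaps between CON and the other groups, and the other 7 are lowest in CON.

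AT3 against CON uses the same CON libraries as CPT against CON, so the values below are not independent of those above. In AT3, 7 members were called higher and 2 lower, where 64.4% of all tested genes were called (31.5% higher and 32.9% lower), and limma on log2(TPM + 1) called 7017 higher and 1698 lower, beside 4312 and 4501 by edgeR. The libraries did not overlap for 9 of 10 against 70.3% of all genes, and 8 were called with a log2 fold change of at least 1, against 32.4%. Il1rn, which passed the filter on low counts only through CPT and AT3, is again in each count. The log2 fold changes were 1.82 for Il6ra, 1.95 for Osmr, 0.83 for Jak1, 1.81 for Stat3, 3.02 for Socs3, 2.09 for Il1r1 and 6.36 for Il1rn. Lifr had -2.21 and Il1rap -1.38. Adjusted p for these 9 genes by edgeR ran from 3.67e-10 for Il1rn to 3.83e-05 for Osmr.

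AT3 was then set against CPT, the 2 groups labelled with cisplatin injury. Socs3 was lower in AT3, at 38.3 ± 4.39 against 66.9 ± 10.5 CPM (SD over 3 libraries in each group), which is 1.75-fold lower (log2 fold change -0.80 ± 0.17 (SE), edgeR adjusted p = 0.0158). It was the 1 member called, where 4.68% of all tested genes were called (2.46% higher and 2.22% lower). By edgeR 0 members rose, while 1 was higher at an unadjusted p under 0.05 and 1 by DESeq2, Il6ra in each case. The median log2 fold change of the 10 was -0.026, beside 0 over all tested genes. The libraries did not overlap for Socs3, Il6ra and Il6st, 3 of 10, against 27.0% of all tested genes, and 0 were called with a change of at least 1 on the log2 scale, against 0.753%.

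The Socs3 call held in 12 of 17 alternative settings, with adjusted p from 8.59e-10 to 0.256. It was lost without AT3 replicate 1 (adjusted p = 0.0997), without AT3 replicate 3 (0.0752), without CPT replicate 2 (0.0860) and in limma on either TPM scale, where 45 and 32 of all genes were called. Socs3 was lower in AT3 under each of the 17, with log2 fold changes of -0.92 to -0.66. CPT_2, the library with the highest Socs3, also had the highest neutrophil marker sum. In AT3 against CPT 3 of 6 tested neutrophil markers fell by edgeR and 4 by DESeq2. Of all tested genes edgeR called 2.22% lower there. The part of neutrophils in the Socs3 value was not tested.

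Il6ra was 33.1 ± 3.48 CPM in AT3 against 25.1 ± 0.941 in CPT, a log2 fold change of 0.40 that did not pass the test (edgeR adjusted p = 0.0767). It passed in 4 of the 17 alternatives, with adjusted p of 0.0209 to 0.395 over them. Stat3 (0.085), Jak1 (0.078), Lifr (0.12), Osmr (-0.039), Il1r1 (-0.16), Il1rap (-0.20), Il6st (-0.19) and Il1rn (-0.012) had log2 fold changes within 0.2 of 0 in this comparison. Their standard errors ran from 0.095 for Il6st to 0.25 for Osmr, so differences of this size could not be told from 0. Without CPT_3, its highest library, Il1rn had a log2 fold change of 0.32 in AT3 against CPT (adjusted p = 0.124).

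**Figure D2:**
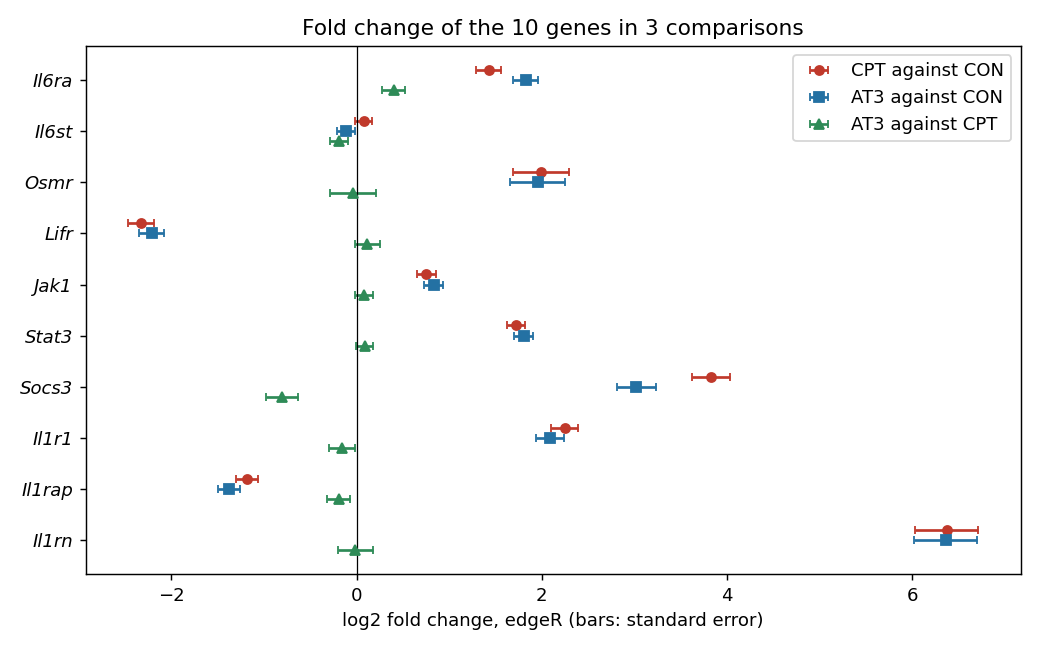
Log2 fold change of each gene from edgeR on the horizontal axis, with bars of 1 standard error, for CPT against CON (circles), AT3 against CON (squares) and AT3 against CPT (triangles). The first 2 share the CON libraries, and Socs3 is the gene whose 2 values against CON lie furthest apart, at 3.83 and 3.02.

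Ratios of 2 genes within a library do not depend on the scaling between libraries. The 5 ratios were compared in 3 group pairs, 15 exact permutation tests in all (two-sided), where 3 libraries against 3 cannot go below p = 0.1, and 0.125 was the lowest p after Benjamini-Hochberg adjustment. So no ratio can pass a threshold of 0.05 here. The ratio of Il6st to Il6ra TPM was 7.04, 4.03 and 6.37 in CON, 2.13, 2.11 and 2.24 in CPT, and 1.34, 1.65 and 1.35 in AT3. The excess of the signal-transducing over the ligand-binding subunit was largest in CON and smallest in AT3, with no overlap between groups (exact permutation p = 0.1 for each pair). The ratio of Il1rap to Il1r1 was 5.22, 5.68 and 4.99 in CON, 0.471, 0.529 and 0.5100 in CPT, and 0.473, 0.453 and 0.545 in AT3. Accessory protein transcripts thus outnumbered receptor transcripts in CON, and the order was inverted in each CPT and AT3 library (exact permutation p = 0.1 for each group against CON, 0.8 for AT3 against CPT).

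The antagonist to receptor ratio, Il1rn to Il1r1, was 0.0403, 0.0177 and 0.00531 in CON, 0.203, 0.235 and 0.514 in CPT, and 0.336, 0.302 and 0.373 in AT3. Receptor transcripts outnumbered those of the antagonist in every library, by 188-fold in CON_3 and by 1.94-fold in CPT_3. Groups CPT and AT3 overlapped (exact permutation p = 0.7). Socs3 to Stat3 was 0.246, 0.224 and 0.644 in CON, 1.44, 1.66 and 1.05 in CPT, and 0.666, 0.828 and 0.702 in AT3. Socs3 exceeded Stat3 per gene length in the 3 CPT libraries and in none of the 6 others, and AT3 lay between CON and CPT without overlap (exact permutation p = 0.1 for each pair). CON_3 was the highest CON library for this ratio, and lay just under the lowest AT3 library. Osmr to Lifr was 0.00349, 0.00384 and 0.00561 in CON, 0.0829, 0.0834 and 0.0555 in CPT, and 0.0584, 0.0768 and 0.0556 in AT3. Lifr exceeded Osmr in each library, 178-fold to 287-fold in CON and 11.99-fold to 18.02-fold in CPT and AT3.

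**Figure D3:**
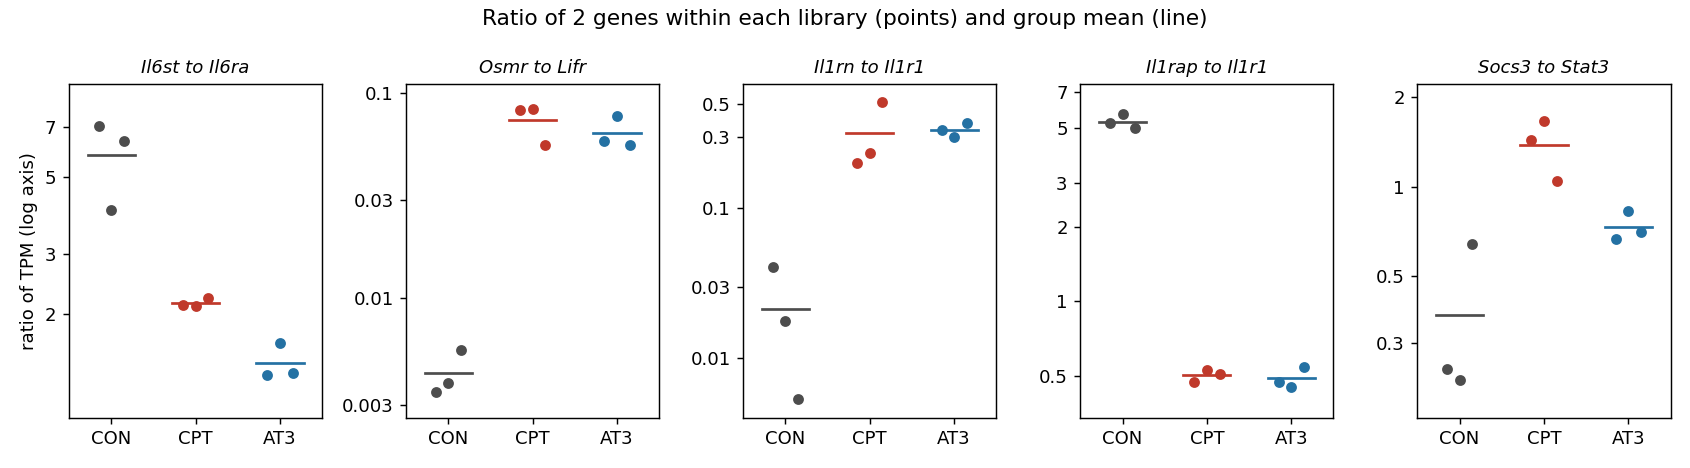
Ratio of the TPM of 2 genes in each library (points) with the group mean (line, n = 3) on log axes. Il1rap to Il1r1 lies above 4.9 in CON and below 0.6 in the 6 other libraries, and Socs3 to Stat3 is above 1 in the CPT libraries alone.

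Per gene length, the order of the 10 changed between groups. In CON, Il1rap (30.2 ± 4.39 TPM, mean ± SD, n = 3) was the highest, followed by Lifr (19.6 ± 1.55), Il1r1 (5.69 ± 0.501), Stat3 (4.04 ± 0.921) and Il6st (3.697 ± 0.335), of which Stat3 and Il6st overlapped. Jak1 (2.497 ± 0.592), Socs3 (1.36 ± 0.4899) and Il6ra (0.6800 ± 0.252) followed, and Il1rn (0.117 ± 0.0902) and Osmr (0.0833 ± 0.0153), which overlapped, were the lowest. In CPT, Il1r1 (39.7 ± 5.998) was highest, followed without overlap by Socs3 (26.4 ± 4.25), Il1rap (20.003 ± 3.45) and Stat3 (19.4 ± 2.28), of which Il1rap overlapped both others. Il1rn (11.97 ± 4.51), Lifr (8.05 ± 1.57), Jak1 (6.15 ± 0.593) and Il6st (5.900 ± 0.333) overlapped each with the next, and Il6ra (2.73 ± 0.163) and Osmr (0.5900 ± 0.157) came last without overlap. In AT3 the order was Il1r1 (37.9 ± 4.51), Stat3 (22.3 ± 1.003), Il1rap (18.5 ± 1.15), Socs3 (16.4 ± 2.46), Il1rn (12.7 ± 0.395), Lifr (9.31 ± 0.522), Jak1 (7.02 ± 1.02), Il6st (5.49 ± 0.405), Il6ra (3.82 ± 0.211) and Osmr (0.5900 ± 0.0964), and Il1rap and Socs3 were the neighbours that overlapped.

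The ligands of these receptors were scarce in liver RNA. Il6 had at most 2 counts and Osm at most 3 in a library, so both were below the filter and near the limit of detection in every group. Lif, the ligand of the receptor that fell, had 0, 0 and 1 counts in CON, 52, 49 and 39 in CPT and 41, 58 and 40 in AT3. Intervals of count ratios here cover counting error only, and replicates differed by more than that. The Lif ratio in CPT to CON, from 140 and 1 summed counts, was 98.9 with an exact 95% interval of 17.5 to 3932. Lif was called higher (edgeR adjusted p = 4.39e-07), but it passed the filter on low counts only through CPT and AT3. Its being tested and its rise are therefore tied. Of the 8 IL-6 family ligands fixed, 4 were tested, of which Lif rose in CPT and Lif and the cardiotrophin gene Ctf1 (log2 fold change 0.58 ± 0.22 (SE), edgeR adjusted p = 0.0294) rose in AT3 against CON. Among all tested genes 30.0% were called higher in CPT against CON and 31.5% in AT3 against CON. Il1b, an agonist of Il1r1, measured 0.337, 0.353 and 0.619 CPM in CON, 0.459, 1.12 and 0.461 in CPT, and 0.755, 0.752 and 0.681 in AT3, and was not called in CPT (adjusted p = 0.216). The other agonist, Il1a, was not called in CPT (adjusted p = 0.183) and fell in AT3 against CON (log2 fold change -1.33 ± 0.44 (SE), edgeR adjusted p = 0.0143). Of 4 tested IL-1 family ligands of 8, the alarmin gene Il33 rose in CPT (log2 fold change 1.72 ± 0.49 (SE), edgeR adjusted p = 0.00639). It is not stated here whether Il33 passed the filter on low counts only through CPT and AT3. Its rise may therefore be tied to its being tested.

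Other receptors and decoys of the family moved as follows. Of 7 fixed, 3 were tested and 3 rose in CPT: Il18bp, which encodes a soluble binder of interleukin 18 (15.7 ± 2.76 against 1.99 ± 0.4705 CPM, log2 fold change 2.999 ± 0.18 (SE), edgeR adjusted p = 1.29e-09), Sigirr, an inhibitory relative of the IL-1 receptor (log2 fold change 0.93 ± 0.14 (SE), edgeR adjusted p = 4.64e-05), and the decoy receptor Il1r2. Il1r2 had 1 count in CON and 51 in CPT. The ratio was 36.0 with an exact 95% interval of 6.18 to 1450, which covers counting error only. Il1r2 passed the filter on low counts only through CPT and AT3, where it is high. Its being tested and its rise are therefore tied, and its call adds no support to the count of 3. Of all tested genes 30.0% were called higher and 30.8% lower in CPT against CON. In AT3 against CPT 0 of the 3 were called by edgeR, by DESeq2 or at an unadjusted p under 0.05. Of the other IL-6 family receptors, 2 of 5 were tested, and Cntfr, the ciliary neurotrophic factor receptor, fell in CPT (log2 fold change -2.34 ± 0.29 (SE), edgeR adjusted p = 5.69e-06).

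Inside the cell, 11 of 12 IL-1 receptor adaptors and kinases were tested. In CPT 2 rose, 4 fell and 5 did not pass, with a median log2 fold change of -0.064, and these 6 calls of 11 lie near the 60.8% called among all tested genes. Myd88, the adaptor of the IL-1 receptor, rose (log2 fold change 0.92 ± 0.13 (SE), edgeR adjusted p = 1.39e-05), while the kinase gene Irak2 (log2 fold change -0.996 ± 0.10 (SE), edgeR adjusted p = 7.13e-07) and the ubiquitin ligase gene Peli1 (log2 fold change -1.60 ± 0.16 (SE), edgeR adjusted p = 4.89e-07) fell. In AT3 against CPT, Tab2 was higher (log2 fold change 0.44 ± 0.093 (SE), edgeR adjusted p = 0.0157) and the other 10 were not called. Of all tested genes 4.68% were called there, 2.46% higher. By DESeq2 1 was higher and 1 lower, and at an unadjusted p under 0.05 2 and 2. Tab2 was lower in CPT than in CON (log2 fold change -0.32, edgeR adjusted p = 0.00874) and not called in AT3 against CON (0.12, adjusted p = 0.264). Of 8 tested of the 9 other JAK and STAT genes, 1 rose and 3 fell in CPT, with a median of -0.25, again beside 60.8% called of all genes. The riser was Jak3 (15.9 ± 1.05 against 2.45 ± 0.271 CPM, log2 fold change 2.69 ± 0.13 (SE), edgeR adjusted p = 1.56e-10), which was lower in AT3 than in CPT (log2 fold change -0.41 ± 0.11 (SE), edgeR adjusted p = 0.0379). Stat5a, Stat5b (log2 fold change -0.88 ± 0.10 (SE), edgeR adjusted p = 1.20e-06) and Jak2 (log2 fold change -0.81 ± 0.19 (SE), edgeR adjusted p = 0.00205) fell.

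Of the 15 other negative regulators of JAK-STAT signalling 14 were tested, and 5 rose, 5 fell and 4 were not called in CPT (median 0.020), a share called near the 60.8% of all tested genes. The phosphatase genes Ptpn6 (log2 fold change 1.09 ± 0.12 (SE), edgeR adjusted p = 1.57e-06) and Ptpn2 (log2 fold change 1.24 ± 0.14 (SE), edgeR adjusted p = 2.57e-06) were among the rises and Socs4 (log2 fold change -1.51 ± 0.17 (SE), edgeR adjusted p = 2.26e-06) among the falls. None of the 14 was called in AT3 against CPT by edgeR or DESeq2, with 2 at an unadjusted p under 0.05, 1 in each direction. Of the 5 genes of receptor shedding and IL-1 processing 4 were tested. Rhbdf2, a partner of the sheddase encoded by Adam17, rose (log2 fold change 1.46 ± 0.11 (SE), edgeR adjusted p = 2.20e-08), and Adam17 fell (log2 fold change -0.58 ± 0.15 (SE), edgeR adjusted p = 0.00344).

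Of 22 genes known as STAT3 targets in hepatocytes 21 were tested, and 17 rose, 3 fell and 1 was not called in CPT, with a median log2 fold change of 2.39, where 30.0% of all tested genes were called higher and 30.8% lower and their median was -0.019. These were chosen as known targets, with earlier results of these data in view, and binding of STAT3 was not measured. Saa1, a serum amyloid A gene whose reads can be shared with Saa2, had a log2 fold change of 9.43. The haptoglobin gene Hp had 3.56 and the ferrireductase gene Steap4 5.03. Those that fell in CPT were Myc (log2 fold change -0.79, edgeR adjusted p = 0.0238), Bcl6 (-0.57, adjusted p = 0.0133) and Hamp (-0.39, adjusted p = 0.0443). In AT3 against CPT 3 of the 21 fell and 0 rose by edgeR, while at an unadjusted p under 0.05 these were 8 and 1, and by DESeq2 4 and 0. Of all tested genes 4.68% were called in that comparison, 2.22% lower. The 3 were Bcl3, an NF-kB cofactor (20.3, 18.7 and 23.8 CPM in CON, 34.6, 32.9 and 28.03 in CPT, and 12.3, 14.7 and 20.1 in AT3, log2 fold change -1.02 ± 0.15 (SE), edgeR adjusted p = 0.00199), Steap4 (log2 fold change -0.66 ± 0.13 (SE), edgeR adjusted p = 0.0116) and the hepcidin gene Hamp (log2 fold change -0.65 ± 0.16 (SE), edgeR adjusted p = 0.0323). Bcl3, Hamp, Myc and Bcl6 were named after their values were seen. Saa1 (0.088), Hp (0.0078) and the fibrinogen gene Fga (0.30), abundant acute phase products, had small differences between AT3 and CPT that were not called. The median of the 21 was -0.17 in that comparison, beside 0 over all tested genes.

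**Figure D4:**
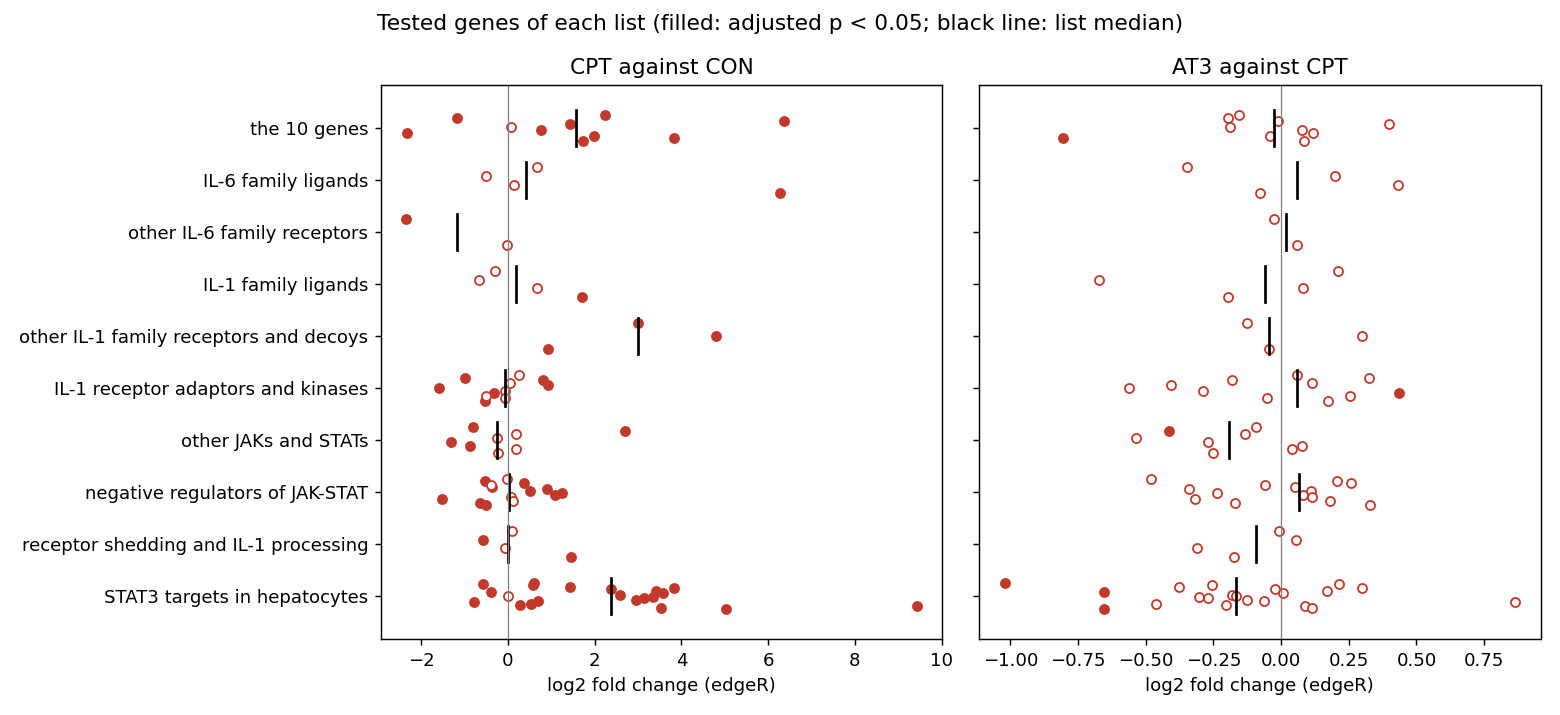
Log2 fold change of each tested gene of the 10 lists in CPT against CON (left) and AT3 against CPT (right, another axis range), with filled points for genes called by edgeR and a black line at each list's median. In the left panel the median of the STAT3 target list is 2.39 and that of the 10 genes 1.57, and in the right panel these are -0.17 and -0.026.

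The genes most like a member over the 9 libraries, by Pearson correlation of log2 CPM, were Adipor1 (r = 0.998), Cep170b (0.998) and Mrpl32 (0.997) for Stat3, and Arcn1 (0.997), Scoc (0.991) and Fndc3b (0.991) for Socs3. For Il1r1 they were Fndc3b (0.997), Ttpal (0.995) and Nfkbiz (0.994), and for Il1rn Bad (0.998), Sec13 (0.997) and Arl6ip4 (0.997). With CON set apart from the other libraries for most genes, values of this size are a description of these 9 libraries.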

How the data were processed

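Liver RNA of 9 libraries was analysed, grouped by title. The authors deposited estimated counts per gene and TPM values. How reads were aligned and counted, and whether by strand, was not given in the sources used here. Builds GRCm38, mm10 and GRCm39 appear without a role in the submitters' processing notes. Of the deposited estimated counts 7.96% to 9.55% in a library were not whole, and they were rounded. TPM, which the authors scaled per gene length to a fixed total, served for ratios, orders and alternatives. The authors' group means were not used. The members, lists and tests were chosen with earlier results of these data known, and the promoter elements after the values were seen.

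Counts were tested with edgeR 4.0.16 (R 4.3.3): TMM scaling, filterByExpr, glmQLFit over the 9 libraries with a mean for each group, glmQLFTest and Benjamini-Hochberg adjustment over 13686 genes. The procedure was tested on simulated counts in which few genes changed, as many up as down. Against CON most genes were called here, so that run does not bear on the scaling between CON and the other groups. Alternatives were DESeq2 1.42.0, its size factors in edgeR, no filter, limma 3.58.1 on log2(TPM + 1) and log2(TPM + 0.1), only the libraries compared, scaling without mitochondrial genes and the 10 most abundant others, a replicate block, and leaving out each library. Named beyond the members were up to 3 genes a list with the smallest p, and ligands. The 3 closest genes by correlation with at least 1 CPM were also named. Genes outside this rule (Tab2, Jak2, Bcl3, Hamp, Fga, Myc, Bcl6, Chil3) were chosen after their values were seen. Replicates differed by more than sampling noise, with a chi-square per degree of freedom of at least 7.07. Gene positions are from GENCODE M21 (GRCm38).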

Additional observations from a re-analysis of the deposited data

How the results depend on the processing

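For the 9 members called against CON, both sets of calls held under the 17 alternatives, and Il6st joined them on the TPM scales. Il6st in CPT against CON passed at 0.56 on log2(TPM + 1) and 0.66 on log2(TPM + 0.1), and in AT3 against CON it turned from -0.11 to 0.47 and 0.56. In AT3 against CPT 1 member was called, and 2 with DESeq2, without a filter and with only the 6 libraries compared, through Il6ra at 0.40, 0.40 and 0.38. On both TPM scales 0 were called, with Socs3 at -0.66 and -0.69. Uncalled Osmr turned to 0.0028 and 0.014 there, and Il1rn to 0.13 and 0.14.

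Leaving out 1 library moved the count of members called in AT3 against CPT between 0 and 2, Socs3 from -0.92 to -0.69, Il6ra from 0.32 to 0.47, Osmr from -0.23 to 0.21, Jak1 from -0.017 to 0.13 and Il1rn from -0.19 to 0.32. The log2 difference of the Il1rn to Il1r1 ratio ran from -0.050 to 0.62 and that of Il1rap to Il1r1 from -0.12 to 0.013. The cause was not tested.

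Libraries with the same replicate number had deviations from their group means that correlated at -0.038 to 0.076, none over 0.1, so they are taken to share only a number. As a hint from the data, each AT3 and CPT library correlated best with its own number in the other group (0.052 to 0.076), and between CON and CPT none did. With the replicate block, 9, 1 and 9 members were called in CPT against CON, AT3 against CPT and AT3 against CON, Il1rn turned from -0.012 to 0.032 in AT3 against CPT, and 451 of all genes were called there against 641 without the block. Over all genes in AT3 against CPT, DESeq2 called 814, the test without a filter 1174, limma 45 and 32, and leaving out 1 library gave 172 to 1316, the latter without CPT replicate 3. On log2(TPM + 1), 6631 genes were higher and 1604 lower in CPT against CON, beside 4107 and 4219, and 7017 and 1698 in AT3 against CON, beside 4312 and 4501. Low counts limit Osmr and Il1rn in CON most.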
